A study of Mus musculus with 35 samples.

Results

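The genes described here are 10 genes of bone morphogenetic protein (BMP) signalling, chosen by symbol from the 54446 genes of the deposited expression table and followed across its 27 bulk RNA-seq libraries. They are the ligands Bmp2, Bmp4 and Bmp7, the response genes Id1, Id2, Id3 and Id4, and the feedback inhibitors Bambi, Smad6 and Smad7. BMP ligands bind receptor kinases that phosphorylate Smad1, Smad5 and Smad9, which enter the nucleus with Smad4 and switch on target genes. The Id genes are textbook targets of these Smads, and their proteins hold basic helix-loop-helix transcription factors away from DNA. Smad6 and Smad7 block the receptor step from inside the cell, Bambi is a decoy receptor without kinase activity, and Noggin is a secreted protein that binds BMPs and keeps them from the receptors. In the early mouse embryo, BMP4 from the extra-embryonic ectoderm acts on the epiblast, the tissue that gives rise to the body, around the start of gastrulation.

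All samples are labelled wild-type, with 3 libraries in each of 9 groups of mouse cells. ESC-derived and embryo-derived 3D epiblast stem cells (3D EpiSCs) grew in Matrigel with FGF2, Activin-A, the Wnt inhibitor XAV and Noggin, and the embryo-derived cells came from E5.5 epiblasts, for which both LifeAct-GFP reporter and CD-1 embryos were used. 2D EpiSCs were made from ESCs with FGF2 and Activin-A and no added Noggin, and epiblast-like cells (EpiLCs) were ESCs held for 48 h in the same 2 factors. The dimension of the culture, its base medium and coating, the Activin-A dose, XAV and Noggin therefore changed together between the 3D and 2D cultures, and the part of each cannot be told apart. Embryo-derived 3D cells also differed in source, since the other cultures came from ESCs. In their comparisons with 2D EpiSCs and EpiLCs, the part of cell source cannot be told apart from that of culture. The 5 embryonic groups are labelled as untreated CD-1 embryos of either sex, the inner cell mass at E3.5 and the epiblast at daily steps from E4.5 to E7.5, with 10 embryos in a library at E3.5 and E4.5 and 3 to 5 at the later stages. Trophectoderm was to be cut away by laser at E3.5 and removed by immunosurgery at E4.5, where GFP-negative cells of the reporter line Pdgfra:H2B-GFP were then picked as epiblast, since its GFP marks the primitive endoderm. The visceral endoderm and extra-embryonic ectoderm were peeled off by hand from E5.5 on, and the allantois at E7.5. Which of the 2 lines gave the embryos of the other stages is not given by library.

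Levels are in TPM (transcript abundance corrected for transcript length and scaled to the same total in each library), and TPM keeps no record of depth. The in vitro libraries had 22215 to 24438 genes above 0 and the in vivo libraries 20324 to 26751. Embryos and cultures were sequenced from different library kits, so their levels are only set side by side. The third ESC-derived library stood apart from the other 2, by a median of 0.271 and 0.269 (absolute log2 difference over genes), whereas those 2 differed by 0.0610. Embryo-derived libraries 2 and 3 and 2D EpiSC libraries 1 and 2 were as close, at 0.0569 and 0.0649, and all other pairs of a group lay between 0.103 and 0.224. Nothing in the labels says whether such close libraries are separate cultures, so p-values measure the spread between these libraries, which may be technical.

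Marker lists were summed to check the labels. The 6 trophectoderm markers (outer layer of the blastocyst) reached 3111 to 3173 TPM in the libraries labelled E3.5 inner cell mass and 2720 to 2894 TPM in those labelled E4.5 epiblast, against 328 to 840 TPM at E5.5 to E7.5, and none of the 6 was below 1 TPM at E3.5 or E4.5. Elf5, a trophectoderm and extra-embryonic ectoderm factor, was at 124 to 130 TPM at E4.5, where the pluripotency factor Nanog was at 11.3 to 18.9 TPM. Of the other epiblast markers at E4.5, Pou5f1 was at 378 to 420 TPM, Dnmt3b at 410 to 468 TPM and Utf1 at 208 to 228 TPM. Sox2, Otx2 and Fgf5 were at or below 42.6 TPM there. Both groups are therefore called here by their labels only, as the libraries labelled E3.5 and E4.5. The 11 primitive and visceral endoderm markers summed to 535 to 547 TPM at E3.5, 167 to 188 TPM at E4.5, 714 to 767 TPM at E5.5, 1162 to 1185 TPM at E6.5 and 1240 to 1264 TPM at E7.5. Apoa1, an apolipoprotein of the visceral endoderm, was the highest of that list from E5.5 on. The 5 markers of extra-embryonic mesoderm and allantois summed to 150 to 157 TPM at E7.5 and 13.3 to 16.5 TPM at E6.5. The 7 epiblast markers summed to 1133 to 1285 TPM at E3.5 and E4.5, 2611 to 3498 TPM at E5.5 and E6.5, 819 to 863 TPM at E7.5 and 3375 to 3976 TPM in the cultures. In the 4 cultures, Cdx2 and Elf5 stayed below 1 TPM, Afp was at 0 in all 2D EpiSC and embryo-derived 3D libraries, and the mesoderm list summed to at most 4.23 TPM. Other markers of these lists were present in the cultures. The trophectoderm list summed to 564 to 724 TPM in 2D EpiSCs and at most 361 TPM in the other cultures, with Krt18 its highest gene. The endoderm list summed to 47.9 to 65.8 TPM in 2D EpiSCs, with Sox17 its highest gene, and at most 26.2 TPM in the other cultures. The 6 extra-embryonic ectoderm markers summed to 460 to 482 TPM at E3.5, 356 to 372 TPM at E4.5, 28.9 to 31.2 TPM at E5.5, 33.4 to 38.0 TPM at E6.5 and 89.3 to 95.7 TPM at E7.5, with Elf5 at 2.86 to 5.06 TPM at E5.5 and E6.5 and at most 0.579 TPM at E7.5. The 4 surface ectoderm markers summed to 102 to 111 TPM at E3.5, 73.5 to 88.9 TPM at E4.5, at most 4.45 TPM at E5.5 and E6.5, and 36.3 to 39.6 TPM at E7.5.

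**Figure D1:**
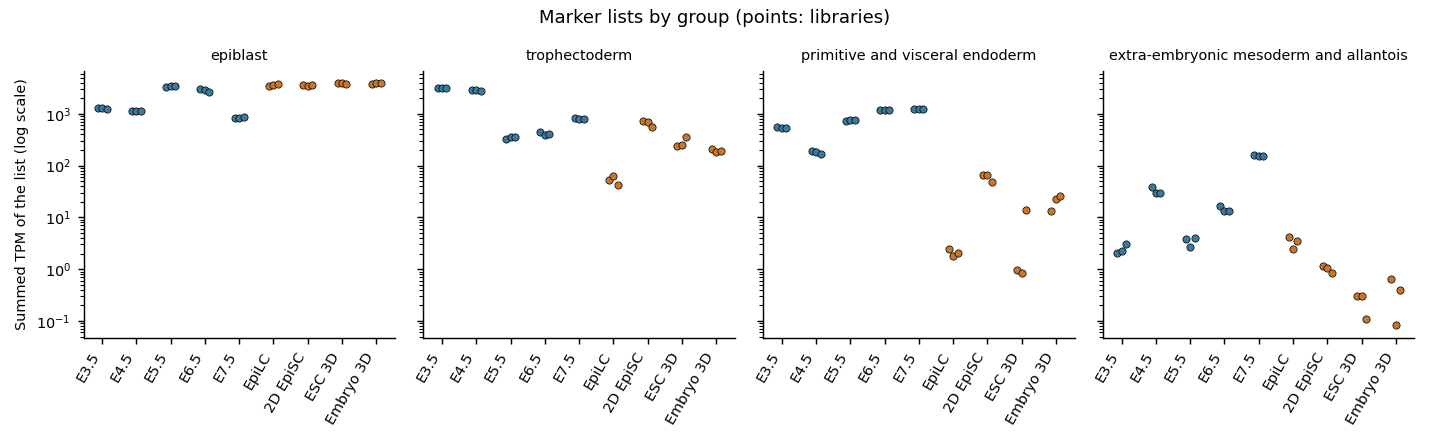
Summed TPM (log scale) of 4 marker lists in each library, embryonic stages in blue and cultures in orange. Trophectoderm markers are highest in the libraries labelled E3.5 and E4.5 (2720 to 3173 TPM), and mesoderm and allantois markers are highest at E7.5 (150 to 157 TPM).

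By the coordinates of the table (mm10), Bmp2 lies on chromosome 2 at chr2:133552159-133562885 on the plus strand, Id1 at chr2:152736251-152737410 on the plus strand and Bmp7 at chr2:172868012-172940321 on the minus strand. Bmp4 lies at chr14:46383520-46390669 (minus), Id2 at chr12:25093799-25097140 (minus), Id3 at chr4:136143497-136145755 (plus), Id4 at chr13:48261228-48266026 (plus) and Smad6 at chr9:63953076-64022059 (minus). The RefSeq promoter table (GRCm38.p6, 250 bases before and 50 after each start) was searched for 5 of the 10 genes, Bmp4, Id2, Id3, Id4 and Smad6. The letters searched, on both strands, were GGCGCC, which reads the same on both strands and resembles the GC-rich element of BMP-activated Smads, and CAGAC, the short Smad-binding element. GGCGCC was held by 11.9% of the 32851 promoters and CAGAC by 49.6%. Id2 and Id4 each held GGCGCC once, 231 and 148 bases before the start, Id3 held CAGAC once on each strand, starting 167 and 68 bases before the start, and Bmp4 and Smad6 held neither. The stretches before the start are shown for the promoters of response genes and of Bmp4, without bases that GENCODE annotates as exon, and capitals mark the matches. For Id3, whose window is exonic in GENCODE, only 25 bases around each match are shown. The start meant here is that of RefSeq. The Id2 stretch before it, with its match, lies inside the Id2 span given above and not upstream of that span.
Id2, chr12:25096254-25096342, minus strand, 89 bases: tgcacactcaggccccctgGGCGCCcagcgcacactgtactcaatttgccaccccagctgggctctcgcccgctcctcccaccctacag
Id4, chr13:48260866-48261115, plus strand, 250 bases: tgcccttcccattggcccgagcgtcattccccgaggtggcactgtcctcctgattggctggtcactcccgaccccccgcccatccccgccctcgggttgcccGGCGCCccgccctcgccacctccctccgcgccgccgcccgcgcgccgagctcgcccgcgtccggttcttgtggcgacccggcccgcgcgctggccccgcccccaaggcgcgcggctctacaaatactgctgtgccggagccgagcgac
Id3, chr4:136143645-136143669, plus strand: tcctcggcgtCAGACcagcctaagg
Id3, chr4:136143744-136143768, plus strand: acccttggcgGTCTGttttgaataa
Smad6, chr9:64022060-64022309, minus strand, 250 bases: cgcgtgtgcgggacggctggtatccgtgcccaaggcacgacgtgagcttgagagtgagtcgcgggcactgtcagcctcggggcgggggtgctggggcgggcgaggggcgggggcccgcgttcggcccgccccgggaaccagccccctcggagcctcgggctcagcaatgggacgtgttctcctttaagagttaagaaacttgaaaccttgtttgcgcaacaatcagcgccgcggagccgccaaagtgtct
Bmp4, chr14:46390670-46390919, minus strand, 250 bases: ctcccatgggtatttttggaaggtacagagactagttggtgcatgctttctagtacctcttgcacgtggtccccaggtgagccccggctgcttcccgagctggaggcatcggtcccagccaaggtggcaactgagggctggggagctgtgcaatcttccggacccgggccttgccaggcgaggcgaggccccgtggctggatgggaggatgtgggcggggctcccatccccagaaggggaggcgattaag

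A first set of comparisons asked how these genes stood in the 3D cultures, whose medium holds Noggin, relative to 2D EpiSCs. Id1 was lower in both 3D cultures and Smad7 was higher in both. ESC-derived 3D EpiSCs were also lower for Id3 and for all 3 ligands, and embryo-derived 3D EpiSCs for Id2. Of the 10 genes, 9 passed the filter (TPM above 2 in at least 3 libraries) and Id4 did not. A gene was called when limma gave a Benjamini-Hochberg adjusted p below 0.05 over all 11541 genes tested and the absolute difference in log2(TPM + 1) was above 1. In the ESC-derived 3D EpiSCs 5 genes were called lower and 1 higher, where 9.25% of all genes were called lower and 0.633% higher, or 1068 against 73 genes, and 712 against 135 after rescaling of TPM by median-of-ratios factors. In the embryo-derived 3D EpiSCs 2 were called lower and 1 higher, where 7.75% of all genes were called lower and 1.07% higher. The median log2 difference of the 9 genes was -1.16 and -0.62 in these 2 comparisons, which share the 2D EpiSC libraries, and that of all genes was -0.21 and -0.08.

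**Figure D2:**
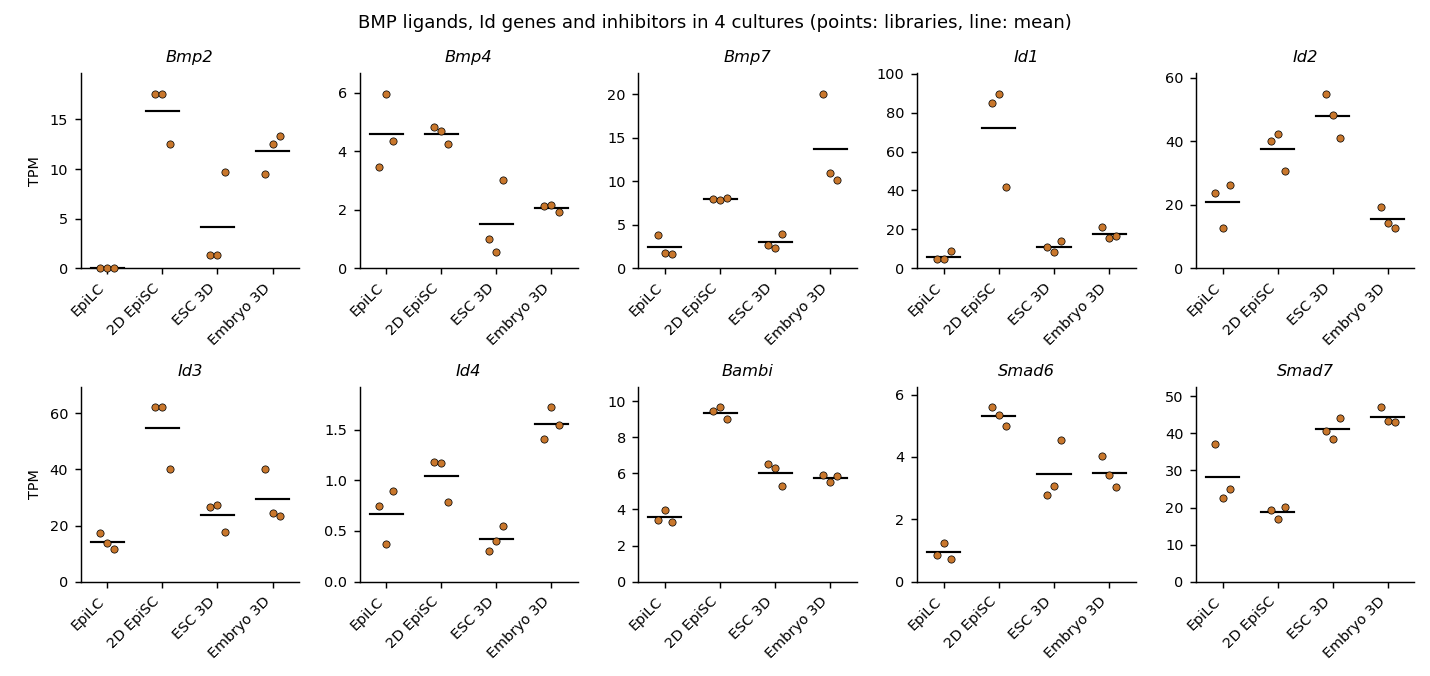
TPM of the 10 genes in EpiLCs, 2D EpiSCs, ESC-derived and embryo-derived 3D EpiSCs, on a linear axis from 0, with a point for each of the 3 libraries and a line at their mean. Id1 sits at 41.8 to 89.5 TPM in 2D EpiSCs and at or below 21.4 TPM in all other libraries, and Smad7 is lowest in 2D EpiSCs (17.0 to 20.1 TPM).

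Among the ligands, Bmp2 was measured at 17.5, 17.5 and 12.5 TPM in 2D EpiSCs, at 1.34, 1.34 and 9.68 TPM in ESC-derived 3D EpiSCs and at 9.48, 12.5 and 13.3 TPM in embryo-derived 3D EpiSCs. The third ESC-derived library carried most of that group's spread, and the embryo-derived libraries overlapped those of 2D EpiSCs. The log2 difference from 2D EpiSCs was -2.10 ± 0.45 (SE, limma adjusted p = 0.00372) in the ESC-derived and -0.40 ± 0.45 (limma adjusted p = 0.536) in the embryo-derived cells. Without ESC-derived library 3 the first of these was -2.83 (limma adjusted p = 8.143e-07).

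Bmp4 stood at 4.81, 4.69 and 4.24 TPM in 2D EpiSCs, 0.996, 0.570 and 3.01 TPM in the ESC-derived cells and 2.12, 2.18 and 1.92 TPM in the embryo-derived cells. Both 3D groups lay below every 2D library. The ESC-derived difference was called, at -1.26 ± 0.27 (limma adjusted p = 0.00386), and the embryo-derived one, at -0.86 ± 0.27 (limma adjusted p = 0.0319), did not reach the limit on size. Bmp7, a ligand that often pairs with BMP2 or BMP4 in heterodimers, was at 8.02, 7.87 and 8.07 TPM in 2D EpiSCs, 2.63, 2.35 and 3.99 TPM in ESC-derived and 20.0, 10.95 and 10.1 TPM in embryo-derived 3D EpiSCs. The 2D libraries lay between the 2 types of 3D culture without overlap. The ESC-derived difference was -1.19 ± 0.27 (limma adjusted p = 0.00479) and the embryo-derived one 0.65 ± 0.27 (limma adjusted p = 0.0885). When the near-identical libraries were averaged and counted once, an alternative added after the values were seen, the ESC-derived calls of Bmp2, Bmp4 and Bmp7 were lost (limma adjusted p = 0.0760, 0.0729 and 0.0683). The Bmp4 call was also lost without ESC-derived library 2 (-0.98).

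The Id genes differed among themselves. Id1 was at 84.8, 89.5 and 41.8 TPM in 2D EpiSCs, 10.8, 8.17 and 14.3 TPM in ESC-derived and 21.4, 15.6 and 16.4 TPM in embryo-derived 3D EpiSCs. No 3D library reached the lowest 2D library. The log2 difference was -2.55 ± 0.31 (limma adjusted p = 9.651e-05) in the ESC-derived cells and -1.90 ± 0.31 (limma adjusted p = 7.031e-04) in the embryo-derived cells, or 5.85-fold and 3.72-fold lower on the scale of log2(TPM + 1). Without 2D EpiSC library 3, the lowest of its group, these were -2.90 and -2.24. Over the alternatives the ESC-derived difference ran from -2.90 to -2.28 (limma adjusted p up to 0.00615). The embryo-derived one ran from -2.24 to -1.66 (limma adjusted p up to 0.0215).

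Id3 was at 62.1, 62.1 and 40.03 TPM in 2D EpiSCs, 26.5, 27.2 and 17.9 TPM in ESC-derived and 40.04, 24.4 and 23.6 TPM in embryo-derived 3D EpiSCs. ESC-derived libraries all lay below the 2D libraries, whereas the highest embryo-derived library was level with the lowest 2D library. Its difference was called in the ESC-derived cells, at -1.16 ± 0.25 (limma adjusted p = 0.00334). In the embryo-derived cells it was -0.89 ± 0.25 (limma adjusted p = 0.0165), short of the limit on size, and -1.13 without embryo-derived library 1. Over the alternatives the embryo-derived difference ran from -1.13 to -0.67, with limma adjusted p up to 0.207. The ESC-derived call was lost when TPM were rescaled by median-of-ratios factors (-0.94) and without ESC-derived library 3 (-0.97).

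Id2 went another way, at 40.1, 42.2 and 30.5 TPM in 2D EpiSCs, 54.9, 48.2 and 41.1 TPM in ESC-derived and 19.5, 14.4 and 12.6 TPM in embryo-derived 3D EpiSCs. The embryo-derived libraries were the low ones, and the ESC-derived and 2D libraries overlapped. The embryo-derived difference was -1.24 ± 0.25 (limma adjusted p = 0.00281) and the ESC-derived one 0.35 ± 0.25 (limma adjusted p = 0.261). With near-identical libraries averaged the embryo-derived call was lost (-1.08, limma adjusted p = 0.0620). Id4 stayed low in every culture, between 0.308 and 1.72 TPM, and was not tested.

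Of the feedback inhibitors, Smad7 was at 19.4, 17.0 and 20.1 TPM in 2D EpiSCs, 40.7, 38.6 and 44.0 TPM in ESC-derived and 47.0, 43.4 and 43.2 TPM in embryo-derived 3D EpiSCs. Every 3D library was above every 2D library, with differences of 1.09 ± 0.16 (limma adjusted p = 3.095e-04) and 1.202 ± 0.16 (limma adjusted p = 1.568e-04). Smad7 is also a well-known target of TGF-beta and Activin signalling, and the 3D medium also held more Activin-A than the 2D medium. The part of Activin-A in this difference cannot be told apart from that of the other changes in medium.

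Smad6 and Bambi, by contrast, lay below the 2D libraries in all 6 libraries of the 3D cultures without reaching the limit on size. Smad6 was at 5.59, 5.35 and 4.99 TPM in 2D EpiSCs, 2.78, 3.06 and 4.53 TPM in ESC-derived and 4.02, 3.43 and 3.04 TPM in embryo-derived cells, with differences of -0.52 ± 0.15 (limma adjusted p = 0.0159) and -0.49 ± 0.15 (limma adjusted p = 0.0263). Bambi was at 9.43, 9.65 and 9.03 TPM in 2D EpiSCs, 6.495, 6.28 and 5.29 TPM in ESC-derived and 5.92, 5.52 and 5.86 TPM in embryo-derived cells, with differences of -0.57 ± 0.10 (limma adjusted p = 8.761e-04) and -0.62 ± 0.10 (limma adjusted p = 5.354e-04).

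Summed endoderm and trophectoderm markers were also lower in the 3D cultures. The primitive and visceral endoderm list summed to 47.9 to 65.8 TPM in 2D EpiSCs, 0.825 to 14.1 TPM in ESC-derived and 13.0 to 26.2 TPM in embryo-derived 3D EpiSCs, with 5, 9 and 8 of its 11 genes below 1 TPM in all libraries and Sox17, Gata6 or both carrying most of the rest. The trophectoderm list, mostly the keratins Krt8 and Krt18, summed to 564 to 724, 242 to 361 and 186 to 209 TPM. In ESC-derived library 3, Gata6 was at 5.42 TPM against 0.0628 and 0.118 TPM in the other 2, so the library that was high in Bmp2 and Bmp4 was also high in this endoderm factor. The part of cells with these markers in the differences was not tested, and in bulk samples fewer expressing cells and less RNA per cell cannot be told apart.

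**Figure D3:**
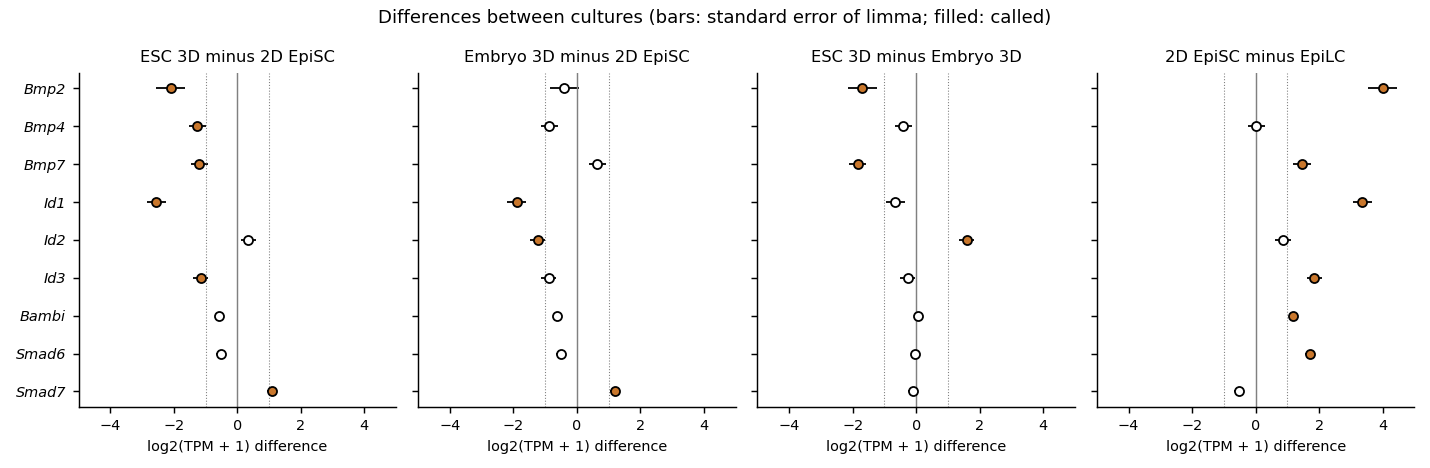
Differences in log2(TPM + 1) for the 9 tested genes in 4 comparisons of cultures, with bars for the standard error of limma, filled points for called genes and dotted lines at -1 and 1. Id1 is low and Smad7 high in both 3D cultures relative to 2D EpiSCs, and Bmp2 and Id1 show the largest differences between 2D EpiSCs and EpiLCs (4.00 and 3.36).

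The direct comparison of the 3D cultures asked how these genes stood in lines of different origin grown in the same medium. In ESC-derived relative to embryo-derived 3D EpiSCs 1 gene was called higher (Id2) and 2 lower (Bmp2 and Bmp7), where 1.98% of all genes were called in each direction. Rescaling of TPM changed that balance over all genes from 228 higher and 229 lower to 275 and 147, and the same 3 genes were called. Id2 differed by 1.59 ± 0.25 (limma adjusted p = 0.00144) and Bmp7 by -1.84 ± 0.27 (limma adjusted p = 0.00101), with no overlap of libraries in either. Bmp2 differed by -1.70 ± 0.45 (limma adjusted p = 0.0240) with overlapping libraries, and this call was lost without ESC-derived library 1 or 2 or without embryo-derived library 2 or 3 (limma adjusted p = 0.0964, 0.0992, 0.0765 and 0.0813), and in a fit of the 2 groups alone (0.109). With near-identical libraries averaged, Bmp7 was the only gene still called (Id2, limma adjusted p = 0.0504). The 6 other tested genes were not called, and the largest of their differences was that of Id1, -0.65 ± 0.31 (limma adjusted p = 0.140). The median was -0.27 for the 9 genes and -0.12 for all genes.

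Against EpiLCs, which stand for an earlier, formative state, 2D EpiSCs were higher in 6 of the 9 genes and lower in none. Of all genes, 15.2% were called higher and 5.14% lower in this comparison, or 1756 against 593 genes, and 1344 against 764 after rescaling, under which the same 6 genes were called. Bmp2 was at 0.0326, 0 and 0.0892 TPM in EpiLCs, far below its 12.5 to 17.5 TPM in 2D EpiSCs. Its difference of 4.00 ± 0.45 (limma adjusted p = 1.804e-05) depends on the pseudocount and was 6.86 with 0.1 in place of 1. Id1 was at 4.59, 4.65 and 8.68 TPM in EpiLCs and differed by 3.36 ± 0.31 (limma adjusted p = 3.110e-06). Id3, at 17.3, 13.9 and 11.7 TPM in EpiLCs, differed by 1.85 ± 0.25 (limma adjusted p = 5.856e-05). EpiLCs were thus the low group for both of these Id genes, with no library overlapping 2D EpiSCs.

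The other 3 genes higher in 2D EpiSCs were Smad6, Bmp7 and Bambi. Smad6 was at 0.867, 1.24 and 0.727 TPM in EpiLCs and differed by 1.71 ± 0.15 (limma adjusted p = 2.468e-06). Bmp7 was at 3.84, 1.72 and 1.65 TPM there, a difference of 1.46 ± 0.27 (limma adjusted p = 7.023e-04), and Bambi at 3.42, 3.98 and 3.30 TPM, a difference of 1.19 ± 0.10 (limma adjusted p = 1.181e-06). Bmp4 did not follow this pattern, at 3.47, 5.95 and 4.35 TPM in EpiLCs, a difference of 0.02 ± 0.27 (limma adjusted p = 0.955) whose sign changed with the scaling. Id2 was at 23.8, 12.8 and 26.3 TPM (0.86 ± 0.25, limma adjusted p = 0.0103) and Smad7 at 37.3, 22.6 and 25.0 TPM (-0.53 ± 0.16, limma adjusted p = 0.0114), both short of the limit on size. The median was 1.46 for the 9 genes and 0.18 for all genes.

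The 3D cultures were also higher than EpiLCs in part of these genes. In embryo-derived 3D EpiSCs 4 of 9 were called higher and 0 lower, Bmp2 (3.61 ± 0.45), Bmp7 (2.11 ± 0.27), Id1 (1.47 ± 0.31) and Smad6 (1.21 ± 0.15), where 10.5% of all genes were called higher and 8.28% lower. This balance over all genes turned with the scaling, from 1215 higher and 956 lower to 1005 and 1083. The ESC-derived 3D EpiSCs had 3 genes called higher, Bmp2 (1.90 ± 0.45), Id2 (1.21 ± 0.25) and Smad6 (1.19 ± 0.15), and Bmp4 was called lower (-1.24 ± 0.27), where 5.33% of all genes were called higher and 7.11% lower. These comparisons share the EpiLC libraries. For Bmp2, near 0 in EpiLCs, a pseudocount of 0.1 gave 6.43 and 4.33, and the ESC-derived difference was 1.17 without ESC-derived library 3. The Bmp4 call was lost without ESC-derived library 2 (-0.96) and the Id2 call without EpiLC library 2 (0.91). Id1 in ESC-derived 3D EpiSCs overlapped EpiLCs (0.81 ± 0.31, limma adjusted p = 0.0472). The order of Id1 by mean was thus 2D EpiSCs, embryo-derived 3D, ESC-derived 3D and EpiLCs, and the steps between the 2 types of 3D culture and between ESC-derived 3D EpiSCs and EpiLCs were not called.

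In the embryo, successive stages were compared to follow the same genes through implantation and up to gastrulation. Bmp4 and Id2 were high in the libraries labelled E3.5 and E4.5, low at E5.5 and E6.5 and higher again at E7.5. Bmp2 was higher from E5.5 on, and Bmp7 from E6.5 on. Id1, Id3, Smad6 and Bambi all had their highest mean at E7.5, whereas Smad7 was highest at E4.5 and lowest at E7.5. Here too 9 of the 10 genes passed the filter, among 11880 genes tested, and Id4 did not. RNA fragmentation, the way of isolation and the number of embryos in a library also changed between E4.5 and E5.5. The way of isolation also changed between E3.5 and E4.5, and cells without the primitive endoderm reporter were picked only at E4.5. The primitive and visceral endoderm list summed to 535 to 547 TPM at E3.5 and 167 to 188 TPM at E4.5. The part of these changes in the differences at either step cannot be told apart from that of stage.

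**Figure D4:**
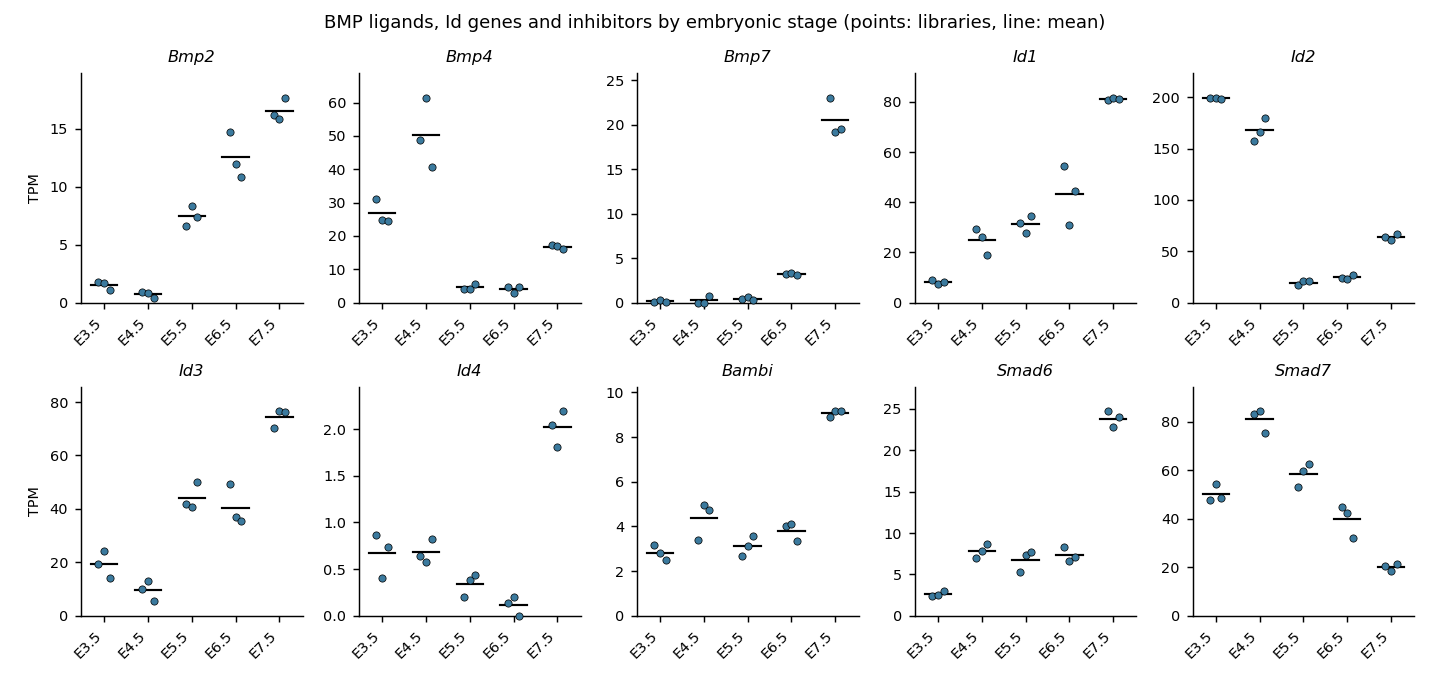
TPM of the 10 genes at E3.5 to E7.5, on a linear axis from 0, with a point for each of the 3 libraries and a line at their mean. Bmp4 and Id2 peak in the libraries labelled E3.5 and E4.5 (24.4 to 61.5 and 158 to 199.7 TPM), while Bmp7, Smad6 and Bambi are highest in every E7.5 library.

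Bmp4 was at 31.2, 24.9 and 24.4 TPM at E3.5, 48.8, 61.5 and 40.6 TPM at E4.5, 3.97, 3.97 and 5.65 TPM at E5.5, 4.60, 2.80 and 4.54 TPM at E6.5 and 17.2, 16.9 and 16.2 TPM at E7.5. The fall from E4.5 to E5.5 was -3.21 ± 0.18 (limma adjusted p = 3.515e-09) and the rise from E6.5 to E7.5 was 1.86 ± 0.18 (limma adjusted p = 2.471e-06). Neither step had overlapping libraries. Trophectoderm markers moved with the first step, from 2720 to 2894 TPM at E4.5 to 328 to 362 TPM at E5.5, and mesoderm and allantois markers with the second, and the part of either cell type was not tested. Between E3.5 and E4.5 Bmp4 differed by 0.87 ± 0.18 (limma adjusted p = 0.00109), short of the limit on size.

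Bmp2 was at 1.73, 1.71 and 1.121 TPM at E3.5, 0.900, 0.857 and 0.398 TPM at E4.5, 6.61, 8.37 and 7.38 TPM at E5.5, 14.7, 11.98 and 10.9 TPM at E6.5 and 16.2, 15.9 and 17.7 TPM at E7.5. It rose from E4.5 to E5.5 by 2.31 ± 0.15 (limma adjusted p = 1.188e-08), and no later step was called although no libraries overlapped. BMP2 of the visceral endoderm is a known signal to the epiblast, and the visceral endoderm markers Afp and Ttr, at 0 and at most 2.52 TPM in the libraries labelled E4.5, were at 75.5 to 84.2 and 80.0 to 89.5 TPM at E5.5. Of the same list, Apoa1, Amn, Hnf4a and Pdgfra were also called higher from E4.5 to E5.5. Cubn (-0.11), Gata6 (-0.10), Sox17 (0.07), Gata4 (0.56) and Sox7 (-0.44) were not called. Cubn was already at 91.9 TPM by mean in the libraries labelled E4.5. The part of visceral endoderm cells in the rise of Bmp2 was not tested. Bmp7 was at or below 0.733 TPM in every library up to E5.5, at 3.16, 3.29 and 3.09 TPM at E6.5 and at 23.0, 19.2 and 19.5 TPM at E7.5. It rose at both steps, by 1.57 ± 0.18 (limma adjusted p = 1.370e-04) from E5.5 to E6.5 and by 2.36 ± 0.18 (limma adjusted p = 2.138e-07) from E6.5 to E7.5. With a pseudocount of 0.1 the first of these was 2.72.

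Id2 showed the highest level of any of the 10 genes, 199.6, 199.7 and 198.9 TPM in the libraries labelled E3.5 and 158, 167 and 180.4 TPM in those labelled E4.5. At E5.5 it was at 17.1, 20.7 and 20.7 TPM, a fall of -3.05 ± 0.09 (limma adjusted p = 7.549e-12), or 8.28-fold on the scale of log2(TPM + 1). It was at 23.7, 23.1 and 26.5 TPM at E6.5 and rose by 1.36 ± 0.09 (limma adjusted p = 6.701e-08) to 64.2, 61.3 and 66.9 TPM at E7.5. The drop of Id2 after E4.5 accompanied that of the trophectoderm list given above, and whether those cells carried it was not tested.

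Id1 was at 9.17, 7.47 and 8.12 TPM at E3.5, 29.3, 26.2 and 19.1 TPM at E4.5, 31.5, 27.7 and 34.5 TPM at E5.5, 54.6, 31.0 and 44.6 TPM at E6.5 and 80.8, 81.6 and 81.3 TPM at E7.5. The step from E3.5 to E4.5 was called, at 1.46 ± 0.18 (limma adjusted p = 1.675e-05), and that from E6.5 to E7.5 fell short of the limit on size, at 0.93 ± 0.18 (limma adjusted p = 9.827e-04), or 1.11 without E6.5 library 1. Over the alternatives the step from E6.5 to E7.5 ran from 0.55 to 1.11, with limma adjusted p up to 0.0548. The libraries of E4.5, E5.5 and E6.5 overlapped at each step between them.

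Id3 was at 19.4, 24.1 and 14.2 TPM at E3.5, 10.0, 13.0 and 5.72 TPM at E4.5 and 42.0, 40.8 and 49.999 TPM at E5.5. It rose by 2.16 ± 0.24 (limma adjusted p = 2.989e-06) from E4.5 to E5.5, the step at which Id2 fell. E6.5, at 49.2, 36.8 and 35.4 TPM, overlapped E5.5, and E7.5, at 70.4, 76.6 and 76.2 TPM, lay above E6.5 by 0.88 ± 0.24 (limma adjusted p = 0.00712), short of the limit on size. Over the alternatives this last difference ran from 0.50 to 1.02, with limma adjusted p up to 0.137. Id4 passed 2 TPM in only 2 of the 27 libraries, both at E7.5, where it was at 2.05, 1.81 and 2.19 TPM, and was at or below 0.870 TPM at all earlier stages. Fitted without the filter, Id4 was also called higher at E7.5 than at E6.5.

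Smad6 was at 2.42, 2.56 and 2.99 TPM at E3.5 and rose by 1.27 ± 0.12 (limma adjusted p = 1.462e-06) to 6.99, 7.82 and 8.63 TPM at E4.5. It overlapped between E4.5, E5.5 and E6.5, between 5.33 and 8.63 TPM, and rose by 1.58 ± 0.12 (limma adjusted p = 3.185e-07) to 24.7, 22.8 and 24.0 TPM at E7.5. Bambi lay between 2.51 and 4.95 TPM up to E6.5 and rose by 1.07 ± 0.12 (limma adjusted p = 1.188e-05) to 8.88, 9.15 and 9.16 TPM at E7.5. Smad7 was at 47.6, 54.4 and 48.7 TPM at E3.5 and 0.68 ± 0.12 higher at E4.5 (limma adjusted p = 2.907e-04), short of the limit on size. Smad7 ran the other way after E4.5, where it was at 83.4, 84.4 and 75.5 TPM, through 53.3, 59.7 and 62.8 TPM at E5.5 and 44.9, 42.3 and 32.2 TPM at E6.5 to 20.4, 18.6 and 21.4 TPM at E7.5. Its libraries overlapped at none of these steps, and each step was short of the limit on size, the last at -0.94 ± 0.12 (limma adjusted p = 2.734e-05).

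Counted by step, 2 of 9 genes were called higher from E3.5 to E4.5 (Id1 and Smad6) and 0 lower, where 5.88% of all genes were called higher and 11.9% lower. With a pseudocount of 0.1 this count was 4, Bmp2 (-1.03) and Id3 (-1.05) being added as lower. From E4.5 to E5.5, 2 were called higher and 2 lower, where 14.9% and 9.47% of all genes were. From E5.5 to E6.5 only Bmp7 was called, where 0.715% of all genes were called higher and 0.48% lower. At the last step, to E7.5, 5 were called higher and 0 lower (Bmp4, Bmp7, Id2, Bambi and Smad6), where 10.6% of all genes were called higher and 1.94% lower. Median log2 differences of the 9 genes were 0.48, -0.19, 0.22 and 1.07 at the 4 steps, and those of all genes were -0.10, 0.16, -0.06 and 0.31.

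The last step depended on the scaling, since the median over all genes was -0.03 after rescaling and the calls over all genes went from 1265 higher and 231 lower to 656 and 412. Rescaled, Bmp4, Bmp7 and Smad6 were still called higher, Id2 (0.98) and Bambi (0.73) fell short of the limit, and Smad7 (-1.31) was called lower. Bambi also fell short without E6.5 library 3 (0.99). Fitted on the 2 compared stages alone, without the libraries labelled E3.5 and E4.5, the calls from E5.5 to E6.5 and from E6.5 to E7.5 were the same genes. At E7.5 the mesoderm and allantois list, with Hand1 its highest gene at 77.7 to 84.5 TPM and none of its 5 genes below 1 TPM, stood beside these rises, and its part in them was not tested.

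The make-up of each class also changed along the stages. Bmp4 made up 94.1% ± 1.4 (SD, n = 3) of the summed TPM of the 3 ligands in the libraries labelled E3.5 and 98.0% ± 0.68 in those labelled E4.5. Bmp2 took the largest part at E5.5 (60.2% ± 4.6) and E6.5 (63.5% ± 4.1), and at E7.5 the 3 ligands were nearly even, with Bmp7 at 38.1% ± 2.4. Among the Id genes, Id2 made up 87.6% ± 1.8 at E3.5 and 82.7% ± 4.2 at E4.5, and Id3 was the largest at E5.5 (46.4% ± 0.89). These shares are a description, without a test.

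Set beside the embryo, the cultures had shares of their own. In EpiLCs Bmp4 made up 65.4% ± 16 of the ligands (SD, n = 3) and Id2 49.0% ± 7.7 of the Id genes. 2D EpiSCs had Bmp2 as the largest ligand share (55.5% ± 4.4) and Id1 as the largest Id share (42.6% ± 4.9). ESC-derived 3D EpiSCs had Id2 as the largest Id share (57.5% ± 1.8), and embryo-derived 3D EpiSCs had Id3 (45.2% ± 3.0), as at E5.5. The summed Id level was 113 to 195 TPM in 2D EpiSCs, 73.8 to 92.6 TPM in ESC-derived and 54.2 to 82.3 TPM in embryo-derived 3D EpiSCs and 31.7 to 47.6 TPM in EpiLCs, and every 3D library was between the ranges of EpiLCs and 2D EpiSCs.

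**Figure D5:**
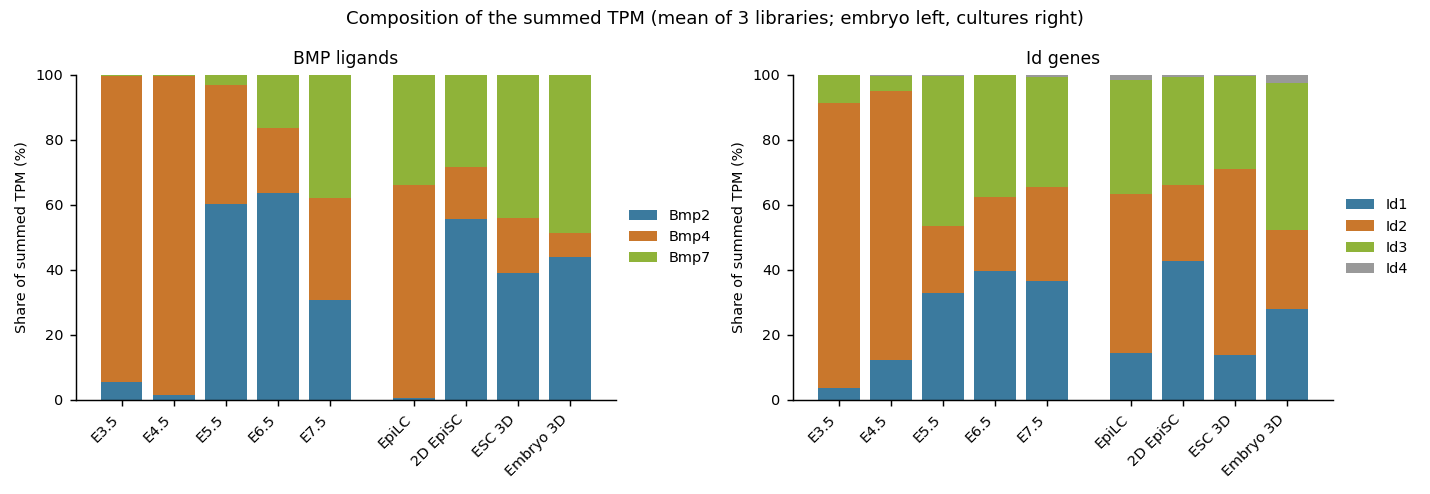
Mean share (%) of each gene in the summed TPM of the 3 BMP ligands (left) and of the 4 Id genes (right), for the embryonic stages and then the cultures, each bar being the mean of 3 libraries. Bmp4 (94.1% and 98.0%) and Id2 (87.6% and 82.7%) dominate the libraries labelled E3.5 and E4.5, and no later stage or culture reaches these shares.

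Other genes of the pathway were taken from a list of 63 genes, of which 35 passed the filter in the cultures and 51 in the embryo. None of the 11 further ligands passed in the cultures. Relative to 2D EpiSCs, 9 of the 35 were called lower and 0 higher in ESC-derived 3D EpiSCs, and 5 lower and 1 higher in embryo-derived 3D EpiSCs, with medians of -0.51 and -0.27. Over all genes 9.25% and 0.633%, and 7.75% and 1.07%, were called lower and higher in these comparisons. Gata3, a transcription factor induced by BMP, was at 10.3, 9.79 and 3.26 TPM in 2D EpiSCs and at most 0.550 TPM in both 3D cultures, differences of -2.73 ± 0.30 and -2.51 ± 0.30 (limma adjusted p = 6.162e-05 and 9.453e-05). Prdm1, a germ cell and endoderm regulator that BMP can induce, was at 15.4, 16.6 and 11.2 TPM in 2D EpiSCs and at most 3.396 TPM in the 3D libraries, differences of -3.05 ± 0.31 and -2.04 ± 0.31. None of the libraries overlapped for either gene. The sums of the trophectoderm marker list, which holds Gata3, and of the endoderm list were also lower in both 3D cultures. The part of cells with these markers in the differences of Gata3 and Prdm1 was not tested.

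Secreted BMP antagonists made by the cells themselves also differed. Nog, which encodes Noggin, was at 2.20, 2.58 and 2.09 TPM in 2D EpiSCs and at most 0.458 TPM in the 3D cultures that receive Noggin in the medium, and was called lower in both (-1.53 ± 0.14 and -1.47 ± 0.14). Chrd, which encodes Chordin, was at 61.1, 38.9 and 37.8 TPM in embryo-derived 3D EpiSCs against 10.3, 9.27 and 8.23 TPM in 2D EpiSCs, a difference of 2.16 ± 0.28 (limma adjusted p = 1.792e-04). In ESC-derived 3D EpiSCs it was at 7.30, 6.88 and 17.4 TPM, which overlapped 2D EpiSCs. Cer1, which encodes Cerberus, an antagonist of BMP, Nodal and Wnt ligands, was at 370, 370 and 309 TPM in 2D EpiSCs and at 2.44, 2.36 and 119 TPM in ESC-derived cells (-4.97 ± 1.08, limma adjusted p = 0.00393), again with library 3 apart.

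Between the 3D cultures 4 pathway genes were called, where 1.98% of all genes were called in each direction, and all 4 were lower in the ESC-derived cells, among them Cer1 (-3.65 ± 1.08), Chrd (-2.11 ± 0.28) and Rgma (-1.21 ± 0.17), a BMP co-receptor. Against EpiLCs, 14 were called higher and 1 lower in 2D EpiSCs, 9 and 1 in embryo-derived 3D EpiSCs, and 6 and 3 in ESC-derived 3D EpiSCs. The shares of all genes called higher and lower were 15.2% and 5.14%, 10.5% and 8.28%, and 5.33% and 7.11%, so the count of lower genes in the ESC-derived cells was near its background. Eng, the co-receptor endoglin, was lower than in EpiLCs in all 3 (-3.37 ± 0.21, -3.66 ± 0.21 and -3.48 ± 0.21), at 20.3, 12.1 and 15.9 TPM in EpiLCs and at most 0.830 TPM elsewhere in vitro. Cer1 led the higher genes in each of these comparisons, from 0, 0 and 0.0322 TPM in EpiLCs, so its fitted difference depends on the pseudocount. Of the others, Gata3 (2.92 ± 0.30) and Fstl1 (2.82 ± 0.15), a secreted glycoprotein of the follistatin family, were called higher in 2D EpiSCs. In the 3D cultures these were Chrd (3.83 ± 0.28 embryo-derived, 1.72 ± 0.28 ESC-derived) and the Notch and BMP target Hey1 (2.07 ± 0.18 and 1.69 ± 0.18). Skil (-1.11 ± 0.17), a Smad corepressor, and Prdm1 (-1.05 ± 0.31) were called lower in ESC-derived 3D EpiSCs than in EpiLCs.

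In the embryo 6 of the 51 pathway genes were called higher and 6 lower from E3.5 to E4.5, where 5.88% of all genes were called higher and 11.9% lower, so the lower count was at its background. Bmp8b, a further ligand, was at 34.6, 29.7 and 28.4 TPM in the libraries labelled E4.5 and at most 3.04 TPM at every other stage, and its rise was 4.37 ± 0.14. Hand1 (3.82 ± 0.19) and Zfp423 (2.86 ± 0.13), a cofactor of BMP-activated Smads, also rose at this step, and Tbx3 (-2.74 ± 0.10), Cdx2 (-2.72 ± 0.17) and Bmper (-1.77 ± 0.19) fell. From E4.5 to E5.5, 11 were called higher and 10 lower, where 14.9% and 9.47% of all genes were. Cer1 (4.82 ± 0.09), Fst (3.98 ± 0.38), which encodes the Activin and BMP antagonist follistatin, and the receptor gene Bmpr1b (2.24 ± 0.18) rose most, and Tfap2a (-5.43 ± 0.14), Gata3 (-5.26 ± 0.11) and Gata2 (-4.98 ± 0.13) fell most. Hand1, Cdx2, Tfap2a and Gata3 are also on the marker lists of trophectoderm, surface ectoderm or mesoderm used above.

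From E5.5 to E6.5 the 3 genes called, Gata2 (1.43 ± 0.13), Msx1 (1.37 ± 0.18) and Hand1 (1.32 ± 0.19), were all higher and all from the list of other BMP targets, where 0.715% of all genes were called higher. At the step to E7.5, 11 of the 13 genes of that target list were called higher and 0 lower, with a median of 2.24, and over all 51 genes 16 were higher and 3 lower, where 10.6% and 1.94% of all genes were. Dlx5 (3.51 ± 0.19), Cdx2 (3.23 ± 0.17) and Tfap2a (3.06 ± 0.14) rose most, and Skil (-1.88 ± 0.12) and Bmp8b (-1.43 ± 0.14) were among the genes that fell. Msx1 reached 60.05 to 62.3 TPM at E7.5. In the culture libraries, made with another kit and only set beside these, Msx1 was at most 1.76 TPM. That target list holds genes of mesoderm, surface ectoderm and extra-embryonic tissues, whose markers rose at the same step, and their part was not tested. Dlx5 and Tfap2a are on the surface ectoderm marker list, which summed to at most 4.45 TPM at E6.5 and 36.3 to 39.6 TPM at E7.5.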

How the data were processed

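Bulk RNA-seq values of 27 libraries were used, 12 in vitro and 15 in vivo, and the 8 other samples of the series were not analysed here. The values deposited by the authors are TPM, which StringTie computed from STAR alignments to mm10 (annotation GENCODE VM19) of reads that cutadapt 2.4 had trimmed. The in vitro libraries came from poly-A capture and the in vivo libraries from ribosome-depleted total RNA with a low-input kit, and the E3.5 and E4.5 RNA was fragmented differently from that of later stages. Library totals of TPM are equal by construction, so depth is unknown and no counting interval is given. Of 54490 lines, 54446 genes remained after 12 identifiers on several lines were summed, and empty cells on 56 lines were set to 0.

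Autosomal protein-coding genes (20774, biotypes from GENCODE vM21) with TPM above 2 in at least 3 libraries of a set were tested with limma 3.58.1 in R 4.3.3 on log2(TPM + 1), in a fit of 4 cultures and another of 5 stages, since limma takes such values and count tests do not. Calls needed a Benjamini-Hochberg adjusted p below 0.05 over all genes of a comparison, two-sided, and an absolute difference above 1. Differences are on the log2(TPM + 1) scale, which understates changes of low genes. The fit was tested on simulated data. The 10 genes, the pathway and marker lists and the tests were chosen with earlier results of these data known. Levels of all 10 genes are given for every group, singly or as a range, but not every fitted difference. Of the other pathway genes, the called ones with the largest change are given, at most 3 in each direction of a comparison. The values of 1 such gene are not reported here. Genes outside that rule (Gata3, Nog, Chrd, Cer1, Eng, Bmp8b and Msx1 where they exceed it) were named after their values were seen. Promoters came from RefSeq (GRCm38.p6). Replicate numbers did not pair the libraries. Alternatives were a pseudocount of 0.1, no filter, all genes, rescaled TPM, only the compared groups, a replicate block, an intensity trend, leaving out each replicate and, added after the values were seen, averaging near-identical replicates. Summaries and figures were made with matplotlib 3.10.9, pandas 2.3.3 and numpy 2.4.6 in Python 3.11.15.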

Additional observations from a re-analysis of the deposited data

Results flagged for a closer look

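The 2 types of 3D culture differed from each other in 3 of the 9 tested genes by the direct test, which is also the test of the difference between their contrasts with 2D EpiSCs. The log2 difference of ESC-derived minus embryo-derived 3D EpiSCs was -1.70 for Bmp2, -1.84 for Bmp7 and 1.59 for Id2 (limma adjusted p = 0.0240, 0.00101 and 0.00144). Bmp7 and Id2 stood out because the 2 cultures lay on opposite sides of 2D EpiSCs by mean, Bmp7 at 2.99 and 13.7 TPM around 7.99 TPM and Id2 at 48.1 and 15.5 TPM around 37.6 TPM. Every group had 3 libraries, too few for a test of single outlying libraries.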

How the results depend on the processing

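In 3 cases a count of called genes moved by over 1.5 times. With near-identical libraries averaged the count fell from 6 to 3 in ESC-derived 3D EpiSCs against 2D EpiSCs and from 3 to 1 between the 3D cultures, and with a pseudocount of 0.1 it went from 2 to 4 from E3.5 to E4.5. Leaving out each replicate gave 5 to 6 calls for ESC-derived 3D against 2D EpiSCs, 3 to 4 for embryo-derived 3D against 2D EpiSCs, 2 to 3 between the 3D cultures, 3 to 5 for ESC-derived 3D EpiSCs against EpiLCs, 4 to 5 for embryo-derived 3D EpiSCs against EpiLCs, 6 to 7 for 2D EpiSCs against EpiLCs, 2 to 3, 4 to 4, 1 to 1 and 5 to 7 at the 4 embryonic steps. With the replicate block the counts were 6, 3, 3, 4, 4, 6, 2, 4, 1 and 5, the same as without it, and the numbers did not pair the libraries (mean correlation of same-numbered libraries -0.030 in vitro and -0.017 in vivo).

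Among single-gene values under alternatives, 1171 kept direction and call, 20 gained and 19 lost the call, and 14 changed sign, none of them called. Between the 3D cultures Smad7 was 0.0178 and Smad6 0.0741 with rescaled TPM, and Smad6 was 0.0146 with averaged libraries and -0.1933 to 0.0809 without single replicates. Bmp4 for 2D EpiSCs against EpiLCs was -0.148 with rescaled TPM, -0.0022 with averaged libraries and -0.1294 to 0.1886 without single replicates. Bmp7 from E3.5 to E4.5 was -0.1685 with a pseudocount of 0.1 and -0.1912 to 0.2056 without single replicates, and from E5.5 to E6.5 the latter range was -0.2543 to 0.0241 for Bmp4 and -0.0294 to 0.1993 for Smad6. The cause of these changes was not tested. With 3 libraries a group and no record of depth, differences of genes near 0 TPM, such as Bmp2 in EpiLCs and Bmp7 before E6.5, are set in size by the pseudocount.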

Other observations

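The genes most like Bmp4 over all 27 libraries, by Pearson's r of log2(TPM + 1) among 16949 genes above 2 TPM in at least 3 libraries, were Cbfa2t3 (0.95), Ppp1r9b (0.95) and Pwwp2b (0.94). Those most like Id1 were Clic6 (0.93), Gm21451 (0.91) and Maf (0.90). The 27 libraries span both library kits, and these values are a description.

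Of the transducer genes Smad1, Smad4 and Smad5, none was called in any of the 6 comparisons of cultures, and Smad9 was at most 0.365 TPM in every culture library and did not pass the filter. The type I receptor gene Bmpr1a was at 46.5 to 81.9 TPM in the cultures and at 18.1 to 43.4 TPM in the embryo. Smad1 was at 3.26 to 8.76 TPM in the libraries labelled E3.5 and E4.5 and at 22.9 to 35.3 TPM from E5.5 on. Bmp5, a ligand of the same family, was at or below 0.260 TPM in every embryonic library before E7.5, where it was at 7.36, 7.11 and 6.45 TPM. These genes were chosen after their values were seen.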
